A study of Homo sapiens and Mus musculus with 28 samples.

Results

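SCC1 cells given both H-151 and iR4 were compared with SCC1 cells given vehicle, to ask how far expression with both drugs present lay from the untreated level. The members were chosen by their labels: 3 libraries of the group H151_iR4 and 3 of the group Vehicle, 6 of the 28 libraries of the series. The series sequenced polyadenylated RNA from mouse head and neck squamous cell carcinomas and from SCC1, an established human head and neck squamous carcinoma line, and its theme is the loss of REXO4, a nuclear RNA exonuclease. The 6 libraries belong to an experiment of 9 SCC1 libraries that also held iR4 alone (3 libraries), and no group of that experiment received H-151 alone. A separate experiment of 15 SCC1 libraries, 3 per group, held vehicle-treated Ctrl, R4KO_1 and R4KO_2 cells, the latter pair being REXO4 knockouts, as well as KO_2 cells treated with either H-151 or the TBK1 inhibitor BX-795. The Vehicle, iR4 and H151_iR4 cells carry no knockout in their labels, and the labels give no dose, no time and no definition of iR4. They also do not say whether the 3 replicates of a group are separate cultures, so the p-values measure the spread between these libraries, which may be technical.

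H-151 binds STING, the endoplasmic reticulum protein that passes on the signal of the cytosolic DNA sensor cGAS. Activated STING recruits the kinase TBK1, which phosphorylates the transcription factor IRF3, and IRF3 switches on interferon genes and directly a set of interferon-stimulated genes such as the IFIT family, ISG15 and OASL. Interferon then acts on its receptor, and a transcription factor complex that holds IRF9 binds the interferon-stimulated response element (ISRE) in the promoters of the wider set. NRF2 (NFE2L2) is a separate system: electrophiles modify its inhibitor KEAP1, and NRF2 then raises enzymes of glutathione synthesis, NADPH supply and aldehyde and quinone detoxification. ATF4 is the transcription factor of the integrated stress response and raises amino acid transporters, amino acid synthesis enzymes and hormones such as GDF15.

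The 3 H151_iR4 libraries held 16.04 to 21.90 M counts and the 3 Vehicle libraries 19.43 to 21.65 M, within the 16.04 to 27.94 M of all 24 SCC1 libraries. Values below are CPM (counts scaled to library size with TMM factors), and a fold change is the fitted H151_iR4 level over Vehicle unless said otherwise. On the first principal component of the 9 libraries, which took 76.7% of the variance, iR4 lay at 51.72 to 55.45, H151_iR4 at -29.7 to -26.8 and Vehicle at -25.77 to -24.82. The second component, with 7.9%, placed H151_iR4 at 12.57 to 17.04 and Vehicle at -15.37 to -15.03. The 15 squamous carcinoma markers checked, among them KRT5, KRT14 and TP63, summed to 4422.2 to 4526.8 CPM in Vehicle and 3427.9 to 3587.6 CPM in H151_iR4. The 26 markers of blood, stromal, endothelial, neural, liver and muscle cells summed to at most 30.8 CPM in Vehicle and 32.3 CPM in H151_iR4. Of those 26, 7 were tested and 0 passed, with edgeR's quasi-likelihood test at an adjusted p of 0.05, while 6 of the 26 were at 0 in Vehicle and 7 in H151_iR4. In bulk RNA, fewer cells of a type and less RNA per cell cannot be told apart. REXO4, which the series is about, stood at 90.1, 96.4 and 95.5 CPM in Vehicle, at 61.8, 56.9 and 61.9 CPM in iR4 and at 90.6, 87 and 91 CPM in H151_iR4. REXO4 in H151_iR4 overlapped Vehicle and lay above every iR4 library. Its log2 change against Vehicle was -0.07 (95% interval -0.16 to 0.01, edgeR adjusted p = 0.246), and against iR4 it was 0.57 (adjusted p = 1.24e-11). REXO4 lies on chr9:133406059-133418096 (GRCh38, minus strand) and overlaps STKLD1 on the other strand, and no source used here gives the strand setting of the counting.

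Many genes differed between H151_iR4 and Vehicle, mostly by little. Of 14000 genes tested, 1220 were higher (8.71%) and 1341 lower (9.58%) at an adjusted p of 0.05 in edgeR's quasi-likelihood test, 18.3% in all. The 3 libraries of each group did not overlap, whatever the test, in 17% of all genes on the higher side and 17.3% on the lower side. Changes of 2-fold or more among the called genes numbered 37 higher (0.264%) and 78 lower (0.557%), and 1508 of the 2561 called genes changed by less than 1.2-fold. The median absolute log2 change over all genes tested was 0.099, beside 0.334 for iR4 against Vehicle in the same fit. Those comparisons share the 3 Vehicle libraries, so only their own values are set side by side. Among called genes without overlap whose log2 CPM averaged 2 or more over the 9 libraries, iR4 included, the largest falls were those of a compact set of interferon-stimulated genes, with SERPINB2 and TGM2. The largest rises by the same rule were held by enzymes of NRF2's programme (AKR1C2, AKR1C1, HMOX1, OSGIN1), by targets or hormones of the integrated stress response (INHBE, CHAC1, GDF15), and by BEST1.

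The interferon-stimulated genes are described first, and the promoters of 4 interferon-inducible genes are printed to show the element they are known for: IFIT1, ISG15 and HERC5, which fell, and OAS3, listed here among the RNA sensors, which did not pass the test. Each is the stretch before the RefSeq gene start (GRCh38.p14) up to the first base that GENCODE v29 annotates as exon, written 5′ to 3′ on the gene's strand. Capitals mark the ISRE core, searched as GAAANNGAA on both strands, so that TTCNNTTTC is the same element on the other strand, and overlapping cores run together. The stretches are chr10:89392373-89392545 (plus strand) for IFIT1, chr1:1013247-1013422 (plus strand) for ISG15, chr4:88456869-88457116 (plus strand) for HERC5 and chr12:112938224-112938351 (plus strand) for OAS3.
IFIT1: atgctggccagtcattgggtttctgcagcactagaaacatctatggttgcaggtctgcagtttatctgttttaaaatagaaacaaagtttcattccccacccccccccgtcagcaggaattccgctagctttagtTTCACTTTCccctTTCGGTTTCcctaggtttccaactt
ISG15: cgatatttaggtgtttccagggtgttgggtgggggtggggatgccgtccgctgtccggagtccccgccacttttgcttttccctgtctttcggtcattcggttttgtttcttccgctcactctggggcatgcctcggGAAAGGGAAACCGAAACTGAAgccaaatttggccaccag
HERC5: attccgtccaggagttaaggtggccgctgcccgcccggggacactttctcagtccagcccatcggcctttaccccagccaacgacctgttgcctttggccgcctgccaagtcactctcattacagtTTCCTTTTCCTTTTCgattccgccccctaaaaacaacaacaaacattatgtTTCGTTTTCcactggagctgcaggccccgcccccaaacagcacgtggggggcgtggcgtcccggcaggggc
OAS3: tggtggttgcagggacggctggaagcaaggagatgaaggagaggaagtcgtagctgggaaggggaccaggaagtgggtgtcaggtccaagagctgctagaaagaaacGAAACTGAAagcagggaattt

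Of 40 tested members of the interferon-stimulated list with an entry in the promoter table, 25 (62.5%) held at least 1 ISRE core in the 250 bases before their start, against 7.06% of all 27305 promoters of that table and 5.4% of those of the tested genes. Among the members that fell, 11 of 14 with an entry held it (78.6%), and among those that did not pass the test, 14 of 26 (53.8%). IFIT1 holds cores starting at -115 and -102 from the gene start, ISG15 at -113, -107 and -101, HERC5 at -124, -118 and -73, and OAS3 at -143 and -12. A match describes these letters and is not evidence that a factor is bound.

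With both drugs, OASL and 3 IFIT genes lay far below the untreated level. OASL, an antiviral protein of the 2′-5′-oligoadenylate synthetase family, stood at 32.5, 33.7 and 32.9 CPM in Vehicle, at 165.4, 145.6 and 142.2 CPM in iR4 and at 2.64, 3.07 and 1.22 CPM in H151_iR4. All 3 H151_iR4 libraries lay below every Vehicle library, which in turn lay below every iR4 library. OASL fell 14.1-fold against Vehicle (log2 -3.82, SE 0.13, edgeR adjusted p = 2.43e-16), the largest fall among the genes named here, and its log2 difference from iR4 was -6.01. IFIT1, which binds viral RNA that lacks cap methylation, stood at 44.4, 48 and 44.6 CPM in Vehicle, at 144.8, 125.6 and 127.0 CPM in iR4 and at 10.6, 11.4 and 10.9 CPM in H151_iR4. Its groups did not overlap, and it fell 4.16-fold (log2 -2.06, SE 0.07, adjusted p = 2.61e-16). IFIT2, which shares IFIT1's family and cluster, went from 33.4, 36.5 and 31.3 CPM to 4.89, 6.47 and 5.05 CPM, 6.08-fold lower (adjusted p = 1.55e-15). IFIT3 went from 31.2, 32.8 and 27.6 CPM to 8.04, 7.77 and 7.49 CPM, 3.93-fold lower (adjusted p = 1.57e-14). In each of these IFIT genes the lowest Vehicle library was more than 2-fold above the highest H151_iR4 library. IFIT2 overlaps LIPA in the annotation.

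The ubiquitin-like modifier ISG15 and its ligase fell together. ISG15 stood at 84.8, 91.6 and 87.3 CPM in Vehicle, at 230.5, 212.6 and 221.0 CPM in iR4 and at 33, 35.6 and 36.9 CPM in H151_iR4. It was 2.49-fold lower than Vehicle (log2 -1.32, SE 0.05, adjusted p = 4.17e-16), with no overlap. HERC5, the main ligase that attaches ISG15 to proteins, went from 6.47, 6.2 and 5.46 CPM to 0.836, 1.16 and 0.887 CPM, 6.12-fold lower (SE 0.19 on the log2 scale, adjusted p = 2.43e-10). ISG20, an interferon-induced RNA exonuclease, went from 2.51, 2.43 and 2.17 CPM to 1.48, 1.12 and 1.16 CPM (log2 -0.93, SE 0.21, adjusted p = 0.00277). The ISG20 call is lost in 1 of the alternative settings. ISG15 overlaps a non-coding gene in the annotation.

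**Figure D1:**
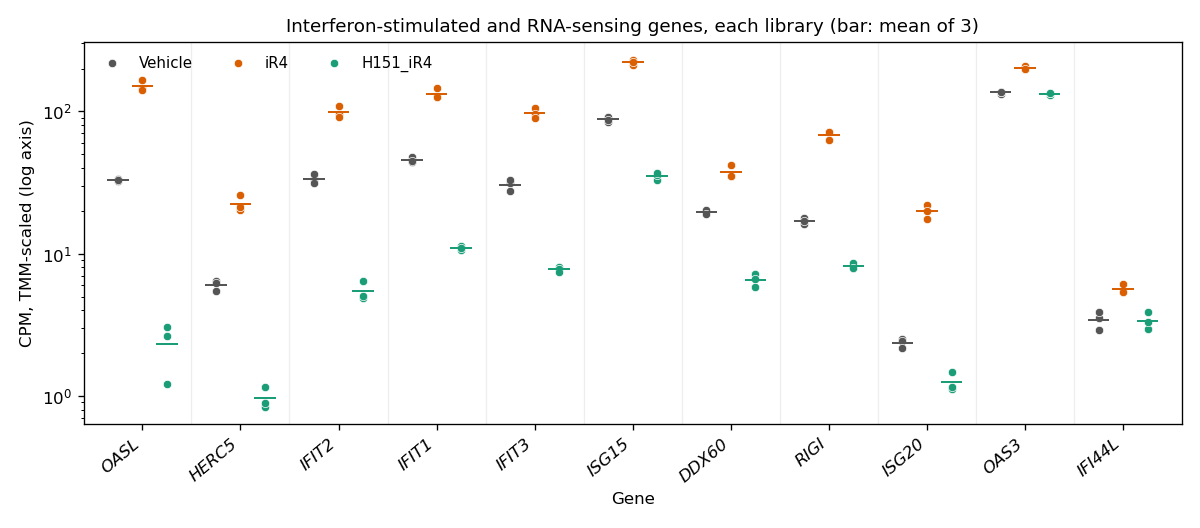
CPM of 11 interferon-stimulated and RNA-sensing genes on a log axis, 1 point per library for Vehicle, iR4 and H151_iR4, with a bar at the mean of 3. OASL, IFIT1, IFIT2, IFIT3 and ISG15 lie below Vehicle in all 3 H151_iR4 libraries, while OAS3 and IFI44L overlap Vehicle.

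The fall did not take in every interferon-inducible gene. Of 51 interferon-stimulated genes listed, 47 were tested, 18 were lower (38.3% of those tested, beside 9.58% of all genes), 1 was higher and 28 did not pass, with a median log2 change of -0.14 beside 0.002 over all genes. Besides the genes above, EPSTI1, TRIM22, IFI44, HERC6, SAMD9, DDX60L, IFITM2, GBP3, LAP3, PARP9 and IFITM3 fell. The RNA sensor OAS3, which makes 2′-5′-linked oligoadenylates, stood at 132.8, 137.2 and 137.8 CPM in Vehicle and at 130.3, 135.5 and 134.5 CPM in H151_iR4, with a log2 change of -0.03 (95% interval -0.10 to 0.05, adjusted p = 0.68). OAS3 had been higher in iR4, at 197.9, 208.6 and 199.7 CPM. IFI44L, the list member with the largest p, changed by -0.01 on the log2 scale (interval -0.33 to 0.30, adjusted p = 0.97). MX1, a GTPase that blocks viral ribonucleoproteins, changed by -0.04 (adjusted p = 0.902). GBP2, a guanylate-binding protein better known as a target of interferon-gamma, was the 1 member higher, at 5.83, 5.41 and 6.52 CPM in Vehicle and 8.56, 10.6 and 8.15 CPM in H151_iR4 (log2 0.63, SE 0.11, adjusted p = 2.10e-04). MX1 and GBP2 were chosen as list members after their values were seen. Relative to the Vehicle mean, the list's median was -0.15, -0.07 and -0.14 in the 3 H151_iR4 libraries and 0.70, 0.69 and 0.68 in the 3 iR4 libraries. Against iR4, 41 of the 47 were lower and 3 higher with a median of -0.72, where 36.3% of all genes tested were lower and 35.1% higher.

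The sensors of cytosolic RNA moved in part with these genes. DDX60, a helicase linked to RIG-I signalling, stood at 19.8, 20.3 and 18.9 CPM in Vehicle and at 5.79, 7.17 and 6.66 CPM in H151_iR4, 2.98-fold lower with no overlap (log2 -1.57, SE 0.10, edgeR adjusted p = 7.25e-12). RIGI, the receptor for RNA with a 5′ triphosphate, stood at 16.2, 17.9 and 16.9 CPM in Vehicle, at 71.4, 63.1 and 71.5 CPM in iR4 and at 7.98, 8.66 and 7.99 CPM in H151_iR4. It was 2.06-fold below Vehicle (log2 -1.04, SE 0.09, adjusted p = 1.65e-09). Of 15 RNA-sensing genes tested, 7 were lower (46.7%) and 2 higher (13.3%), beside 9.58% and 8.71% of all genes, with a median of -0.03. The other lower ones were ZNFX1, PNPT1, ADAR, OAS2 and DHX58. DHX58 (LGP2) changed by -0.88 (adjusted p = 6.15e-05) and OAS2 by -1.32 (adjusted p = 0.0152), from a Vehicle level near 1 CPM. MAVS, the mitochondrial adaptor of RIG-I, with a change of 0.15 (adjusted p = 0.00358), was among the 2 higher. OAS2, DHX58 and MAVS were chosen as list members after their values were seen.

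The parts of the STING pathway itself changed by little, where they passed the test at all. Of 15 members tested, 3 were higher (20%) and 3 lower (20%), beside 8.71% and 9.58% of all genes, with a median log2 change of 0.10. The 3 higher became 1 without Vehicle replicate 1, and the 3 lower became 1 without H151_iR4 replicate 1. With a minimum change of 1.2-fold in the test, 0 were called. STING1, the protein H-151 binds, stood at 27.4, 28.7 and 26.2 CPM in Vehicle, at 49.3, 50.8 and 48.9 CPM in iR4 and at 31.9, 30.4 and 30.9 CPM in H151_iR4. All 3 H151_iR4 libraries lay above every Vehicle library and below every iR4 library. STING1 was higher than Vehicle by 0.18 on the log2 scale (SE 0.06, adjusted p = 0.0267), a call lost in 6 of the alternative settings. SURF4, a cargo receptor that returns STING to the endoplasmic reticulum, rose by 0.17 (adjusted p = 6.78e-04). AP1S2, an adaptor subunit of clathrin coats, fell by 0.36 on the log2 scale (SE 0.06, adjusted p = 3.65e-05). TRIM56, a ubiquitin ligase, was higher by 0.15 (adjusted p = 0.0315). IFI16, a DNA sensor, changed by -0.13 (adjusted p = 0.0209), and the kinase IKBKE by -0.25 (adjusted p = 0.0336). The calls of TRIM56, IKBKE and IFI16 were lost in 6, 5 and 4 alternative settings, respectively.

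The sensor, kinase and transcription factor at the core of the pathway did not pass the test. CGAS stood at 58.8, 55.5 and 61.5 CPM in Vehicle and 60.5, 61.4 and 61.6 CPM in H151_iR4, with a change of 0.06 (interval -0.07 to 0.19, adjusted p = 0.553). In iR4 it was at 108.3, 106.2 and 131.2 CPM. TBK1 changed by 0.12 (adjusted p = 0.0629) and IRF3 by -0.04 (interval -0.13 to 0.05, adjusted p = 0.574). SLC19A1, a folate carrier that also imports cyclic dinucleotides, stood at 74.1, 68.7 and 64.8 CPM in Vehicle, at 11, 10 and 9.35 CPM in iR4 and at 83.9, 73.6 and 69.6 CPM in H151_iR4. Its H151_iR4 level overlapped Vehicle (0.13, adjusted p = 0.137) and lay 2.90 log2 units above iR4 (adjusted p = 1.66e-20). ENPP1, which hydrolyses the messenger cGAMP, changed by 0.10 (adjusted p = 0.429), STIM1 by 0.10 (adjusted p = 0.207), TMEM203 by 0.11 (adjusted p = 0.161) and the channel subunit LRRC8A by 0.01 (adjusted p = 0.887). ZDHHC1, at about 1 CPM in Vehicle, changed by -0.72 (adjusted p = 0.0772). TREX1 is listed at 0 in every library, and ATRIP overlaps it on the same strand.

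Other immune lists stood closer to the 8.71% of all genes higher and 9.58% lower. Of 17 interferon signalling genes tested, 2 were higher (11.8%) and 1 lower (5.88%): IFNGR1 by 0.17, IL10RB by 0.23 and the transcription factor IRF1 by -0.19 (adjusted p = 0.0294). The IL10RB call was lost in 11 alternative settings and the IRF1 call in 4. IFNB1 and IFNL1, IFNL2 and IFNL3 did not reach the count filter. In antigen presentation by MHC class I, 4 of 20 were lower (20%) and 2 higher (10%). HLA-B changed by -0.31 (adjusted p = 1.40e-06), while HLA-C, whose reads can be shared with HLA-B, changed by -0.00. Of 18 chemokine and cytokine genes tested, 2 fell (11.1%) and 1 rose (5.56%), with a median of -0.12 beside 1.87 for iR4 against Vehicle. The count filter used all 9 libraries, so genes low in Vehicle and H151_iR4 could enter through iR4, which favours a high iR4 median. CCL20 entered so, with 2, 2 and 5 counts in Vehicle, 0, 1 and 0 in H151_iR4 and 18, 13 and 16 in iR4. IL1A stood at 21.8, 18.4 and 19.6 CPM in Vehicle, at 139.3, 127.0 and 163.6 CPM in iR4 and at 14.9, 14 and 10.7 CPM in H151_iR4 (log2 -0.60, SE 0.12, adjusted p = 6.01e-04). IL1B followed with -0.91 (adjusted p = 0.00184), and TNFSF9 was higher by 0.22. Both interleukins lay below Vehicle in all 3 libraries, although both calls were lost when all 24 SCC1 libraries were fitted together (IL1B adjusted p = 0.0563), and that of IL1A also with robust dispersion. The number of lower genes in the list ranged from 0 to 3 over the settings. Among 20 NF-kB feedback genes, 3 were lower (15%) and 1 higher (5%): ICAM1 (-0.72, adjusted p = 4.85e-04), TNFAIP3 (-0.68, adjusted p = 0.00241) and TNFAIP2 (-0.16) fell, and NFKBIA (0.28, adjusted p = 1.81e-05) rose.

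Targets of NRF2 rose nearly as a whole list. Of 26 tested, 23 were higher and 0 lower (88.5% higher, beside 8.71% of all genes), with a median log2 change of 0.58 beside 0.002 over all genes tested. Relative to the Vehicle mean, the list's median was 0.54, 0.60 and 0.59 in the 3 H151_iR4 libraries and 0.18, 0.12 and 0.22 in the 3 iR4 libraries. Against iR4, 22 of the 26 were higher and 3 lower, with a median of 0.35, where 35.1% of all genes were higher and 36.3% lower. The list thus stood highest with both drugs, by the test against Vehicle and by the test against iR4, although these tests share the H151_iR4 libraries.

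Among the detoxifying enzymes, AKR1C2, an aldo-keto reductase of steroids and aldehydes, stood at 6.1, 7.39 and 8.3 CPM in Vehicle, at 19, 17.8 and 17.4 CPM in iR4 and at 34.2, 42.9 and 34.3 CPM in H151_iR4. The 3 groups did not overlap, and AKR1C2 rose 5.12-fold against Vehicle (log2 2.36, SE 0.10, edgeR adjusted p = 3.51e-15) and by 1.05 log2 units against iR4 (adjusted p = 2.70e-11). AKR1C1 rose from 11.3, 11.9 and 13.5 CPM to 35.5, 43.2 and 33.1 CPM, 3.07-fold (log2 1.62, SE 0.09, adjusted p = 4.89e-13). The 2 genes are near-identical copies, so that reads may be split between them. Their upstream windows share a run of 245 bases, but these lie before the RefSeq gene start, and the transcripts were not compared. HMOX1, which degrades haem, stood at 7.7, 6.95 and 7.29 CPM in Vehicle, at 18.5, 18.7 and 20.2 CPM in iR4 and at 20.8, 23.6 and 28.5 CPM in H151_iR4 (log2 1.74, SE 0.10, adjusted p = 1.41e-12). It rose 3.34-fold over Vehicle, without overlap. OSGIN1, an oxidative stress-induced growth inhibitor, rose from 15.2, 15.3 and 15.1 CPM to 33.6, 33.5 and 34.7 CPM (2.23-fold, adjusted p = 4.89e-13) and differed from iR4 by -0.54 log2 units.

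Genes of glutathione synthesis and iron storage rose too, from higher levels. SLC7A11, the cystine importer that feeds glutathione synthesis, stood at 237.6, 224.6 and 230.2 CPM in Vehicle and at 381.8, 373.9 and 376.2 CPM in H151_iR4 (1.63-fold, SE 0.04 on the log2 scale, adjusted p = 1.56e-13). The subunits of glutamate-cysteine ligase, GCLC and GCLM, rose by 0.98 and 0.81, the quinone reductase NQO1 by 0.55 and the ferritin chains FTL and FTH1 by 0.67 and 0.42. These 5 were chosen as list members after their values were seen. AKR1B10 (0.00, interval -0.19 to 0.19, adjusted p = 0.988), TALDO1 and TXN did not pass the test.

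Targets of ATF4 rose in number but by less than with iR4 alone. Of 35 tested, 22 were higher (62.9%, beside 8.71% of all genes) and 1 lower, with a median log2 change of 0.21 against Vehicle. The median was 0.78 for iR4 against Vehicle, where 28 were higher and 4 lower (37.1% and 34.8% of all genes). Against iR4, 27 were lower in H151_iR4 and 5 higher, where 36.3% of all genes were lower and 35.1% higher. The sites printed next show the ATF4 element (searched as TGATGNAA on both strands, in capitals) in 2 members that rose: CHAC1 at chr15:40953251-40953280 (plus strand) and ASNS at chr7:97872458-97872487 (minus strand), 30 bases each, both in bases that GENCODE v29 annotates as exon (GRCh38.p14).
CHAC1: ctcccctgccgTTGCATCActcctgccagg
ASNS: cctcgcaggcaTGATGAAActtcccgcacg

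The element was found in 3 of the 29 ATF4 targets with a promoter entry (10.3%) and in 3.19% of all promoters of the table. Among the members that rose, 2 of 20 held it (10%), and among those that did not pass the test, 1 of 8 (12.5%). CHAC1, which cleaves glutathione, stood at 8.45, 8.38 and 8.54 CPM in Vehicle, at 122.0, 114.8 and 143.5 CPM in iR4 and at 17.3, 19.5 and 21.1 CPM in H151_iR4. It rose 2.29-fold over Vehicle (log2 1.19, SE 0.11, edgeR adjusted p = 8.79e-09) and differed from iR4 by -2.71 log2 units. ASNS, asparagine synthetase, stood at 75.6, 82.3 and 88.8 CPM in Vehicle, at 435.5, 408.4 and 455.7 CPM in iR4 and at 137.2, 140.3 and 144.2 CPM in H151_iR4 (1.71-fold over Vehicle, adjusted p = 1.04e-11). In CHAC1 and ASNS the H151_iR4 libraries lay between the other groups without overlap, nearer to Vehicle. SLC6A9, a glycine transporter, rose from 16.9, 18 and 17 CPM to 29.2, 31.9 and 30 CPM (1.76-fold, adjusted p = 3.94e-10). DDIT3 (CHOP) rose by 0.69 (adjusted p = 1.83e-05) and was at 105.9, 100.8 and 120.7 CPM in iR4 against 12.9, 15.1 and 14 CPM with both drugs. The tryptophanyl-tRNA synthetase WARS1, a member with no detected change, differed by -0.02 (adjusted p = 0.706), and SLC7A5 was the 1 lower, by -0.10. DDIT3 and SLC7A5 were chosen as list members after their values were seen. ASNS overlaps a non-coding gene in the annotation.

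Secreted stress hormones showed the same order. INHBE, an activin subunit known from the liver, stood at 2.51, 3.03 and 4.01 CPM in Vehicle, at 110.1, 102.4 and 123.2 CPM in iR4 and at 7.53, 7.77 and 9.32 CPM in H151_iR4 (2.56-fold over Vehicle, SE 0.15 on the log2 scale, adjusted p = 4.56e-07). GDF15, which acts on a brainstem receptor to suppress appetite, stood at 2.84, 2.63 and 2.66 CPM, at 157.8, 134.4 and 169.1 CPM and at 6.18, 5.91 and 5.16 CPM in the same order (2.12-fold over Vehicle, SE 0.18, adjusted p = 7.61e-05). Neither gene overlapped between H151_iR4 and Vehicle, and the GDF15 call was lost in 1 alternative setting. Of 6 hormones tested, 4 rose (66.7%, beside 8.71% of all genes) and 0 fell. Their median was 1.05, beside 3.56 for iR4 against Vehicle, in a list that the count filter drew with the iR4 libraries included. As log2(CPM + 0.5) relative to the Vehicle mean, which understates changes of low genes, the list's median was 0.58, 0.63 and 0.61 in the H151_iR4 libraries and 2.40, 2.12 and 2.49 in the iR4 libraries. The others that rose were VEGFA (0.37) and ADM2 (1.01), and AREG changed by -0.11 (adjusted p = 0.536). BEST1, a chloride channel gene that overlaps FTH1 on the other strand, went from 0.374, 0.645 and 0.579 CPM to 1.42, 1.16 and 1.05 CPM (log2 1.15, SE 0.35, adjusted p = 0.023). BEST1 reached the average of log2 CPM 2 used for naming through the iR4 libraries. Its call was lost without H151_iR4 replicate 1 (adjusted p = 0.0724), without H151_iR4 replicate 2 (0.0598), without Vehicle replicate 1 (0.0939) and without Vehicle replicate 3 (0.0557).

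**Figure D2:**
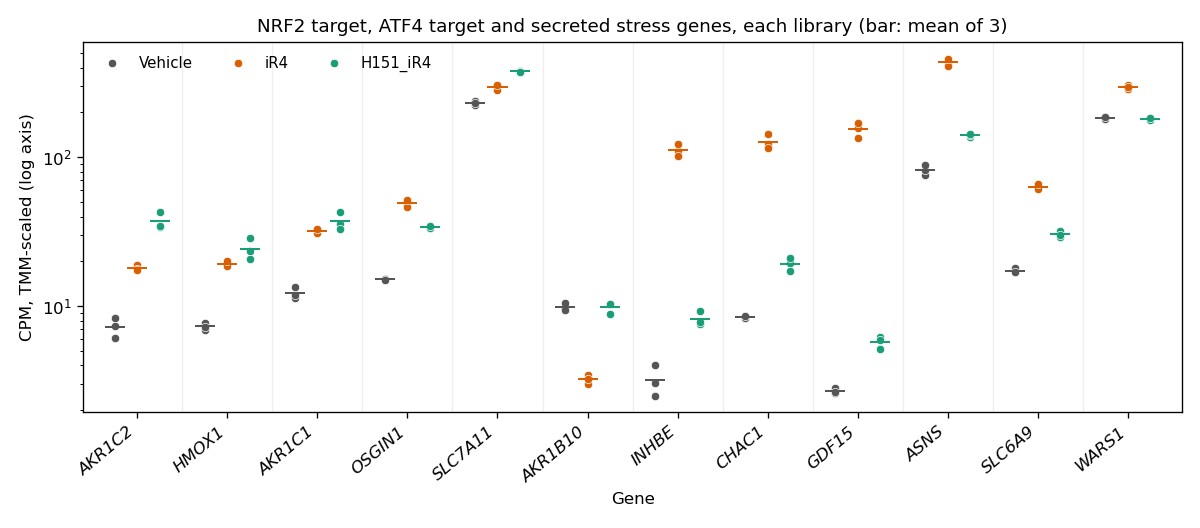
CPM of 12 NRF2 and integrated stress response genes on a log axis, 1 point per library for Vehicle, iR4 and H151_iR4, with a bar at the mean of 3. AKR1C2 is highest in the 3 H151_iR4 libraries, while INHBE, CHAC1, GDF15 and ASNS lie above Vehicle with both drugs and far higher with iR4 alone.

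Chaperones of the endoplasmic reticulum rose with both drugs, whereas most were lower with iR4 alone. Of 23 tested, 16 were higher (69.6%, beside 8.71% of all genes) and 0 lower against Vehicle (median 0.24). In iR4 against Vehicle 6 were higher and 15 lower (median -0.22), where 37.1% of all genes were higher and 34.8% lower. Against iR4, 15 were higher and 4 lower, with a median of 0.35, where 35.1% of all genes were higher and 36.3% lower. HSP90B1 (GRP94), the reticulum's HSP90, stood at 1580.9, 1543.5 and 1608.4 CPM in Vehicle, at 1072.2, 1053.2 and 1087.0 CPM in iR4 and at 1949.2, 1935.8 and 1934.7 CPM in H151_iR4 (log2 0.30 against Vehicle, edgeR adjusted p = 3.83e-08). Its 3 groups did not overlap. DNAJB11, a co-chaperone of BiP, rose from 165.7, 171.2 and 164.4 CPM to 223.5, 210.3 and 222.5 CPM (0.39, adjusted p = 1.15e-08), and MANF, a secreted resident of the reticulum, by 0.37 (adjusted p = 5.90e-08). HSPA5 (BiP), chosen after its values were seen, rose by 0.46 (adjusted p = 8.49e-08). The stress sensor ERN1 (IRE1) changed by -0.05 (adjusted p = 0.798). With a minimum change of 1.2-fold in the test, 5 chaperones were called.

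Smaller rises were found in lipid and lysosomal genes. Of 14 fatty acid synthesis genes tested, 8 were higher (57.1%, beside 8.71% of all genes) and 0 lower, with a median of 0.14. SCD, the desaturase that makes oleate, rose from 616.5, 637.9 and 666.0 CPM to 836.9, 921.5 and 836.6 CPM (0.43, adjusted p = 2.03e-08), without overlap. ME1, which makes NADPH from malate, rose by 0.49 (adjusted p = 7.37e-10) and the desaturase FADS1 by 0.43 (adjusted p = 2.36e-09), while PNPLA3 changed by 0.07 (adjusted p = 0.72). Of 30 autophagy and lysosome genes, 11 were higher (36.7%) and 2 lower (6.67%, beside 9.58% of all genes). The 11 became 7 when all 24 SCC1 libraries were fitted and 7 without Vehicle replicate 1. SQSTM1 (p62), an autophagy receptor that also binds KEAP1, rose from 253.1, 259.5 and 269.9 CPM to 406.6, 378.2 and 399.3 CPM (0.60, adjusted p = 4.16e-12). CTSD rose by 0.30 (adjusted p = 7.70e-07), and LAMP1 changed by 0.00. Cholesterol synthesis did not follow: 2 of 25 were higher (8%) and 5 lower (20%). FDFT1 changed by -0.16 (edgeR adjusted p = 0.00638), and the list median was 0.62 for iR4 against Vehicle. The 5 became 2 without H151_iR4 replicate 2 or Vehicle replicate 3. They became 3 without H151_iR4 replicate 1, H151_iR4 replicate 3 or Vehicle replicate 2. Over all settings other than the minimum fold, the lowest count of lower genes was 0. The FDFT1 call was lost in 1 setting.

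Matrix and adhesion genes of the epithelial to mesenchymal programme fell. Of 39 tested, 22 were lower and 1 higher (56.4% lower, beside 9.58% of all genes), with a median log2 change of -0.26 beside 0.08 for iR4 against Vehicle. FN1 (fibronectin) stood at 71.8, 69.1 and 73 CPM in Vehicle, at 100, 94.8 and 95.8 CPM in iR4 and at 27.9, 27.4 and 27.6 CPM in H151_iR4. The 3 groups did not overlap, and FN1 fell 2.58-fold against Vehicle (log2 -1.37, SE 0.05, edgeR adjusted p = 2.26e-16). TNC changed by -1.18, MFAP5 by -1.33 and INHBA by -2.24, the last from under 1 CPM in Vehicle, and the urokinase receptor PLAUR was the 1 higher (0.23, adjusted p = 0.0329). TNC, MFAP5, INHBA and PLAUR were chosen as list members after their values were seen. MMP3 changed by 0.01 (adjusted p = 0.992).

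Targets of YAP, the transcriptional coactivator that the Hippo kinases restrain, overlap that list in part and fell as well. Of 18 tested, 14 were lower (77.8%, beside 9.58% of all genes) and 0 higher, with a median of -0.39. For iR4 against Vehicle 5 were lower and 9 higher with a median of 0.12, where 34.8% of all genes were lower and 37.1% higher. F3 (tissue factor) went from 179.3, 160.3 and 149.7 CPM to 78.5, 74.9 and 62.7 CPM (2.26-fold lower, SE 0.06 on the log2 scale, adjusted p = 4.99e-13). AXL, a receptor tyrosine kinase, went from 84.1, 76.6 and 79.3 CPM to 53.1, 47.3 and 49.1 CPM (1.61-fold lower, adjusted p = 1.20e-10). Neither gene overlapped between the groups. The most cited YAP targets moved less than F3 and AXL, although ANKRD1 fell further than the list median of -0.39. CCN1 changed by -0.21 (adjusted p = 0.00675), ANKRD1 by -0.51 (adjusted p = 0.0104) and CCN2 by 0.11 (adjusted p = 0.429), all named after their values were seen. LATS2 changed by 0.00 (adjusted p = 0.989). Among the largest falls by the naming rule above, TGM2, a transglutaminase that crosslinks matrix proteins, went from 10.9, 11.4 and 11.2 CPM to 4.12, 3.26 and 3.88 CPM (log2 -1.59, SE 0.11, adjusted p = 4.55e-11). SERPINB2 (PAI-2) went from 7.54, 6.45 and 8.35 CPM to 2.44, 1.91 and 1.94 CPM (3.59-fold lower, SE 0.14, adjusted p = 6.27e-10). TGM2 overlaps RPRD1B and SERPINB2 overlaps SERPINB10 in the annotation.

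**Figure D3:**
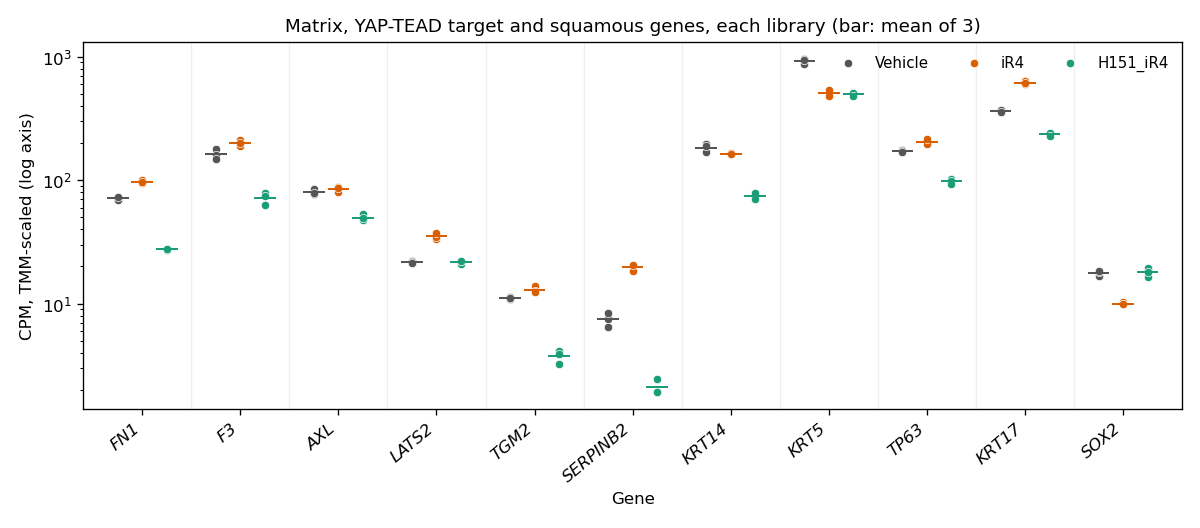
CPM of 11 matrix, YAP-target and squamous genes on a log axis, 1 point per library for Vehicle, iR4 and H151_iR4, with a bar at the mean of 3. FN1, F3, TGM2 and KRT14 lie below both other groups in all 3 H151_iR4 libraries, KRT5 lies with iR4, and SOX2 and LATS2 overlap Vehicle.

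Keratins and markers of the squamous lineage fell in the same libraries. KRT14, the keratin of basal keratinocytes, stood at 168.3, 194.5 and 188.2 CPM in Vehicle, at 163.4, 165.7 and 163.0 CPM in iR4 and at 75.3, 78.7 and 70.6 CPM in H151_iR4 (2.45-fold lower than Vehicle, log2 -1.29, SE 0.05, edgeR adjusted p = 3.16e-16). Its partner KRT5 stood at 865.8, 955.7 and 938.5 CPM in Vehicle, at 506.6, 532.3 and 483.8 CPM in iR4 and at 498.0, 509.6 and 482.9 CPM in H151_iR4. KRT5 was 1.85-fold below Vehicle (adjusted p = 9.00e-15) and overlapped iR4 (-0.03, adjusted p = 0.499). TP63, the master transcription factor of the squamous lineage, stood at 176.3, 170.9 and 167.5 CPM in Vehicle, at 207.0, 194.5 and 213.4 CPM in iR4 and at 102.9, 98.6 and 92.6 CPM in H151_iR4 (1.75-fold below Vehicle, adjusted p = 2.62e-13). KRT14 and TP63 thus lay below both other groups with both drugs, which KRT5 did not. Of 14 squamous markers tested, 8 were lower (57.1%, beside 9.58% of all genes) and 2, CD44 and EPCAM, higher (14.3%), with a median of -0.19. SOX2 changed by 0.02 (adjusted p = 0.909).

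Of the keratin and differentiation list, 26 of 38 genes were tested. It held 12 lower (46.2%, beside 9.58% of all genes) and 0 higher genes, with a median of -0.23. KRT17, a keratin of wounded and malignant epithelium, stood at 364.3, 369.4 and 355.4 CPM in Vehicle, at 632.5, 597.6 and 612.1 CPM in iR4 and at 243.1, 241.2 and 226.9 CPM in H151_iR4 (1.53-fold below Vehicle, adjusted p = 1.54e-12). KRT81, a hair keratin, went from 8.18, 9.82 and 8.45 CPM to 3.99, 3.44 and 3.44 CPM (log2 -1.29, adjusted p = 1.49e-08), and LCN2 changed by -0.04 (adjusted p = 0.97). S100A2, a calcium-binding protein of basal epithelium, changed by -0.45 (edgeR adjusted p = 5.96e-10). Of 11 S100 genes, 4 were lower (36.4%) and 1 higher (9.09%).

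Growth-related lists were lower by small amounts. Of 51 cytosolic ribosomal protein genes, 31 were lower (60.8%, beside 9.58% of all genes) and 0 higher, with a median of -0.10. RPL13 changed most by p, by -0.26 (edgeR adjusted p = 5.02e-05), while RPS6 changed by -0.00 (adjusted p = 0.981). Respiratory chain genes held 16 lower of 37 (43.2%, median -0.10) and ribosome biogenesis 14 of 51 (27.5%, median -0.08). Mitochondrial ribosome held 9 of 32 (28.1%, median -0.10) and mitosis 7 of 32 (21.9%, median -0.04), with 0 higher in each of these lists. The medians for iR4 against Vehicle were -0.42 for cytosolic ribosome, -0.70 for ribosome biogenesis and -0.52 for mitosis. When a change of at least 1.2-fold was tested for, these 5 lists held 0 calls, and the 31, 16 and 14 dropped to 18, 7 and 7 without H151_iR4 replicate 2. Without that library the mitochondrial ribosome list went from 9 lower genes to 2 and mitosis from 7 to 4. Mitochondrial ribosome also went to 3 without Vehicle replicate 2, 4 without Vehicle replicate 1, 5 without H151_iR4 replicate 3 and 13 without H151_iR4 replicate 1, and mitosis to 4 without H151_iR4 replicate 1 or Vehicle replicate 1. The median over all genes tested moved only from 0.002 to -0.003 with other scaling factors, and the direction of these lists did not change with it.

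The remaining lists held few called genes each. R-loop factors had 3 of 35 lower and 0 higher, m6A machinery 2 of 22 lower and 0 higher, exonucleases 2 of 26 lower and 1 higher, and DNA replication 3 of 39 higher and 1 lower, none of these shares above the 8.71% higher and 9.58% lower of all genes. Heat shock genes had 3 of 23 higher (13%) and 1 lower, p53 targets 4 of 22 higher (18.2%) and 2 lower, and immediate early genes 5 of 26 higher (19.2%) and 1 lower. Feedback genes of the MAPK pathway had 4 of 19 higher (21.1%) and 2 lower (10.5%) with a median of 0.12, beside 1.68 for iR4 against Vehicle. Without H151_iR4 replicate 2 the higher counts fell to 1 for immediate early genes, 2 for p53 targets and 2 for MAPK feedback, and the 3 lower R-loop factors to 0. The R-loop count was also 0 without Vehicle replicate 3 and 1 without Vehicle replicate 1 or 2. The immediate early count was also 2 without any 1 of the Vehicle libraries and 3 without H151_iR4 replicate 1. Over all settings other than the minimum fold, the lowest higher count was 0 for immediate early genes and 1 for MAPK feedback. Within the MAPK list, DUSP4 was higher by 0.61 (adjusted p = 8.90e-05) and ETV5 by 0.44 (adjusted p = 8.58e-04), and DUSP7 changed by -0.31 (adjusted p = 4.49e-05).

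**Figure D4:**
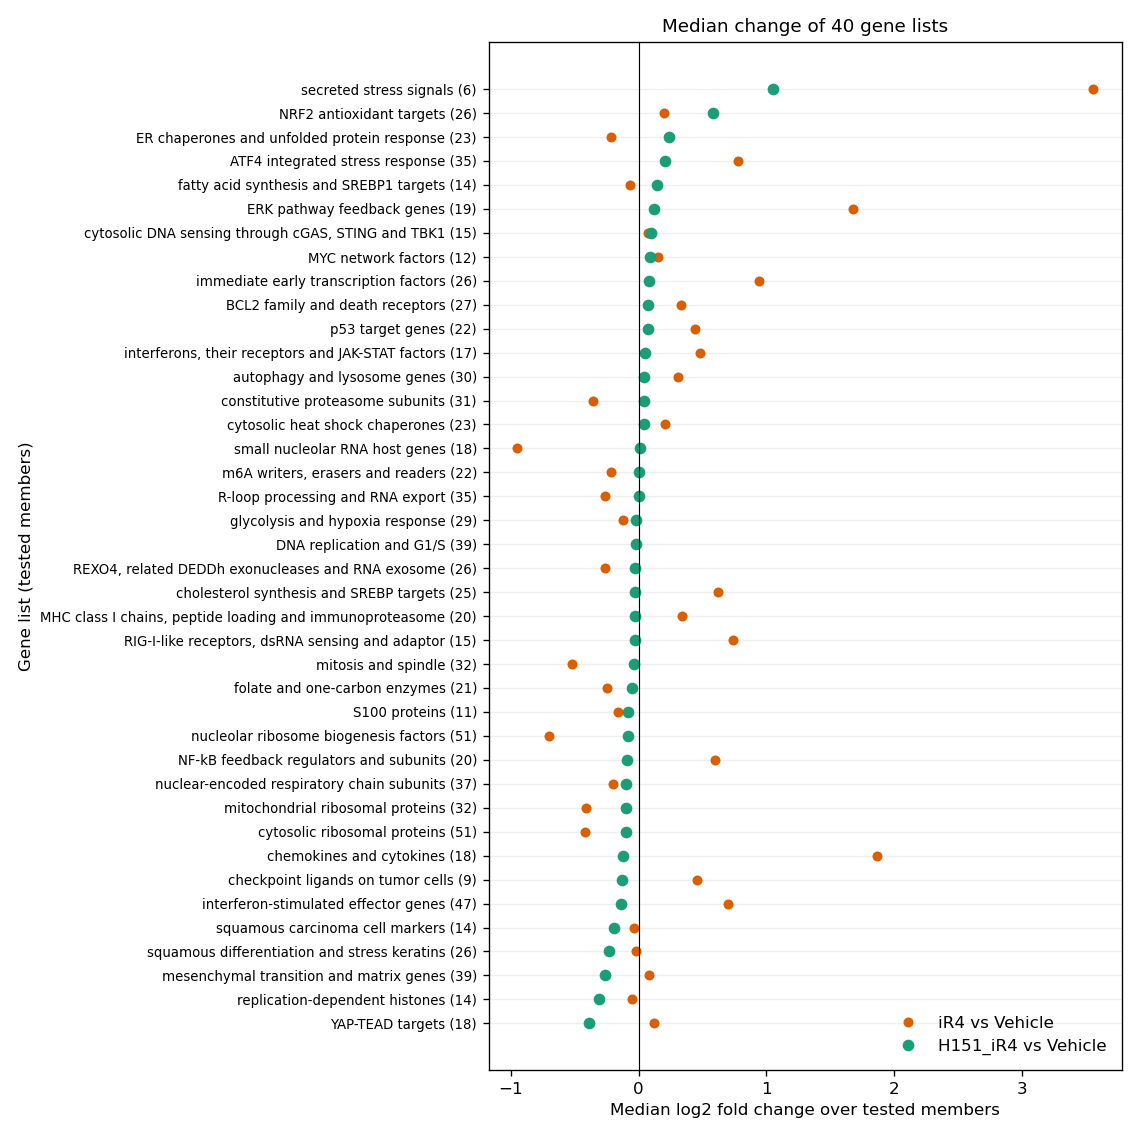
Median log2 fold change of 40 gene lists against Vehicle, for iR4 and for H151_iR4, which share the 3 Vehicle libraries. With both drugs most lists lie near 0. NRF2 targets (0.58), stress hormones (1.05) and ER chaperones (0.24) are among those above it. YAP targets (-0.39), histones (-0.31, with 3 of 14 called lower), matrix genes (-0.26) and keratin and differentiation genes (-0.23) are among those below it.

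The knockout experiment supplied gene sets from libraries that do not enter this comparison. Of 14348 genes tested in R4KO_1 against Ctrl, 4742 were higher (33%) and 4510 lower (31.4%). Of the higher set, 4563 were tested here, and 572 (12.5%) were higher and 356 (7.8%) lower with both drugs, with a median log2 change of 0.031. In iR4 against Vehicle, 3351 of the same 4563 (73.4%) were higher and 270 (5.92%) lower, with a median of 0.440. Over all genes tested, iR4 against Vehicle held 37.1% higher and 34.8% lower. Of the lower set, 4472 were tested, and 300 (6.71%) were higher and 666 (14.9%) lower with both drugs (median -0.025), beside 268 higher and 3424 lower (76.6%) in iR4 (median -0.345). Restricted to genes changed 2-fold or more in R4KO_1 (7.57% higher and 2.55% lower), 87 of 922 in the higher set were higher (9.44%) and 75 lower (8.13%) with both drugs. In the lower set, 6 of 330 were higher (1.82%) and 50 lower (15.2%). By their medians both sets lay near the Vehicle level in H151_iR4, and the shares called in the set's own direction, 12.5% and 14.9%, stand beside 8.71% and 9.58% of all genes.

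H-151 was also given to cells labelled KO_2, and no library is shared between that comparison (KO_2_H151 against Ctrl Vehicle) and the one above. The KO_2_H151 libraries held 7 genes that were at 1 CPM or more in R4KO_1 and at least 8-fold above Ctrl and R4KO_2, at a median of 2.69 CPM, beside 1.81 in R4KO_1, 0.14 in R4KO_2 and 0.0781 in Ctrl. Their median was 0.709 CPM in Vehicle and 0.609 CPM in H151_iR4, above that of Ctrl although these cells carry no knockout label. KO_2_H151 also differs from R4KO_2 by its drug. At these few, low genes the libraries labelled KO_2_H151 resembled R4KO_1 and not R4KO_2, which leaves the knockout line behind the label in doubt. Whether line, drug or experiment lies behind this was not tested, and KO_2_H151 is used below as the label only. In the fit of all 24 SCC1 libraries, 4080 genes were higher in KO_2_H151 than in Ctrl (28%) and 3839 lower (26.3%). The difference between the changes, H151_iR4 minus Vehicle less KO_2_H151 minus Ctrl, was tested for 14585 genes: 2925 were more positive with both drugs (20.1%) and 3021 more negative (20.7%), 40.8% together. Without the 7 genes the counts were 2925 and 3015. Across 13973 genes the changes correlated with Pearson's r of 0.08, a description across genes, which are not independent replicates. Of the genes higher with both drugs, 477 (39.1%) were higher and 324 (26.6%) lower in KO_2_H151, and of those lower with both drugs, 561 (41.8%) were lower and 384 (28.6%) higher. The 477 and 561 genes are 12% and 14.9% of the genes higher and lower in KO_2_H151. The test also spans different experiments, and Vehicle and Ctrl Vehicle themselves differed in 51.5% of genes, so drug, knockout and experiment cannot be told apart in it.

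FN1 and the YAP targets moved in opposite directions in the 2 settings. FN1, 2.58-fold lower with both drugs, rose in KO_2_H151 from 33.1, 33.9 and 32.4 CPM to 79.9, 75.8 and 79.4 CPM, and the log2 difference between the changes was -2.61 (SE 0.08, edgeR adjusted p = 1.34e-20). Of the 18 YAP targets tested, 12 were higher in KO_2_H151 and 3 lower with a median of 0.40, where 28% of all genes were higher and 26.3% lower. Of their differences, 14 passed the test as negative and 1 as positive, beside 20.7% and 20.1% of all genes. TP63 fell from 326.1, 314.5 and 314.3 CPM to 86, 81 and 84 CPM, further than with both drugs (difference 1.12), while KRT14 changed by -1.24 there and its difference was -0.05 (SE 0.08, adjusted p = 0.63). Of 47 interferon-stimulated genes, 18 were lower and 1 higher with both drugs (median -0.14), and 35 were lower and 1 higher in KO_2_H151 (median -0.43). Of their differences between the changes, 22 passed the test as positive and 6 as negative with a median of 0.25, where 20.1% of all genes were more positive with both drugs and 20.7% more negative.

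OASL and IFIT1 were among the 6 with a negative difference. OASL went from 33.1, 39.1 and 35.6 CPM in Ctrl to 13.4, 12.9 and 13.8 CPM in KO_2_H151, a smaller fall than with both drugs (difference -2.39, SE 0.30, adjusted p = 1.70e-07). IFIT1 changed by -1.08 there (difference -0.97, SE 0.16, adjusted p = 2.07e-05), while for HERC5 (-0.68, adjusted p = 0.233) and DDX60 (0.39, adjusted p = 0.141) a difference was not detected. Among NRF2 targets, AKR1C2 changed by 0.34 in KO_2_H151 (difference 2.01), whereas HMOX1 rose by 2.14 and its difference of -0.40 did not pass (adjusted p = 0.0977). ALDH3A1, an aldehyde dehydrogenase of squamous epithelium, had the largest positive difference (3.54, SE 0.17, adjusted p = 2.76e-16). It stood at 4.49, 4.91 and 5.02 CPM in Vehicle and 7.91, 10.2 and 7.49 CPM in H151_iR4, against 29.6, 32.4 and 32.3 CPM in Ctrl and 4.66, 5.46 and 4.48 CPM in KO_2_H151. SCD fell by 0.74 on the log2 scale in KO_2_H151, the opposite of its rise with both drugs (difference 1.17).

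**Figure D5:**
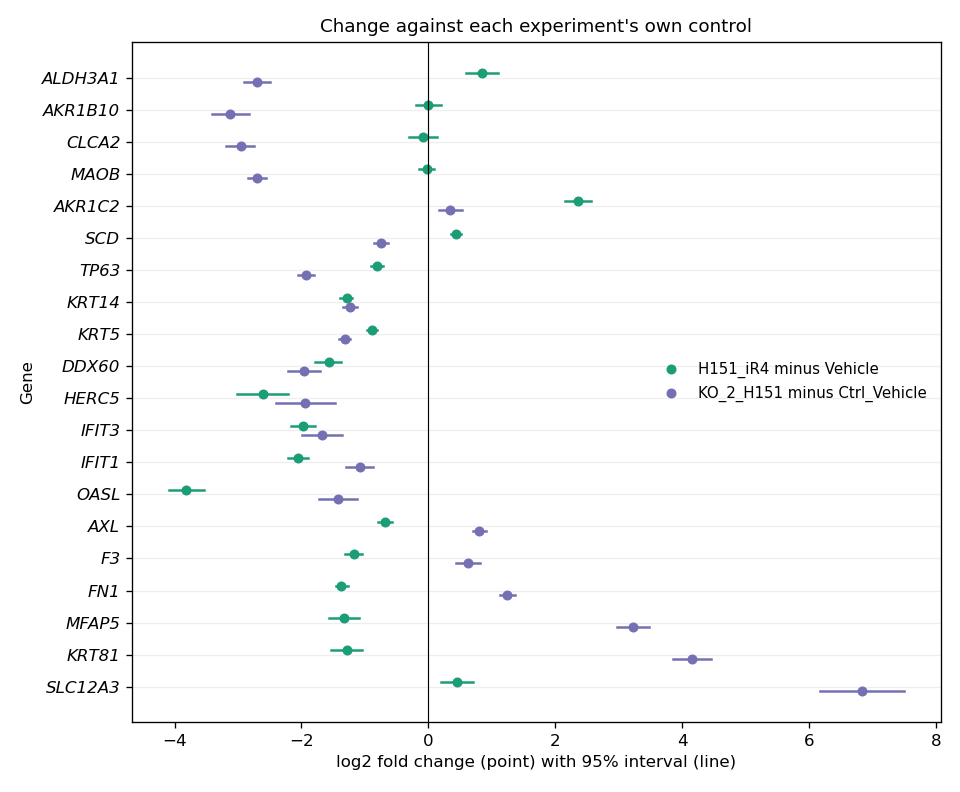
Log2 fold change with 95% confidence interval of 20 genes for H151_iR4 minus Vehicle and for KO_2_H151 minus Ctrl Vehicle. OASL, IFIT1 and KRT14 lie below 0 in both, FN1, F3 and AXL lie below 0 with both drugs and above 0 in KO_2_H151, and AKR1C2 lies farther above 0 with both drugs.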

How the data were processed

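The authors deposited 1 table of raw counts per library, keyed by Ensembl gene ID, and the SCC1 tables were checked here to hold whole numbers. The labels' protocols describe DNase-treated RNA selected with oligo(dT) beads, although the molecule field says genomic DNA, and the counts were taken as RNA counts. The submitters' processing notes name HISAT2 2.2.1, featureCounts 2.0.1, FastQC 0.11.9, Trim Galore 0.6.4 and DESeq2 1.42.0 as tools, with hg38 for human reads. No source used here gives the annotation or the strand setting.

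Each of 35135 IDs was used once, and the 13 mitochondrially encoded mRNAs are listed at 0. From the deposited counts, edgeR 4.0.16 (R 4.3.3) was fitted with TMM scaling after filterByExpr at 10 counts, and quasi-likelihood F tests were adjusted by Benjamini-Hochberg over all genes tested, with 0.05 as the threshold. The 9 libraries of the iR4 experiment were fitted together, and the filter used all 9, so genes could be tested that passed it through iR4 alone. The difference from KO_2_H151 used all 24 SCC1 libraries, and the R4KO_1 sets used the 15 of the knockout experiment. A standard error is the log2 change over the square root of F. Same-numbered libraries of different groups did not deviate together (r from -0.027 to 0.029), so replicate numbers were not used as a block. The fits were tested on simulated data.

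The members and the 41 gene lists were chosen with earlier results of these data known. Named genes are REXO4 and the STING pathway list; the 8 largest rises and 8 largest falls among called genes whose groups do not overlap and whose average log2 CPM over the 9 libraries, iR4 included, reaches 2; the 3 smallest p and 1 largest p of each list described; and the 5 largest differences from KO_2_H151 each way. Promoters and starts are from RefSeq (GRCh38.p14). Tried as alternatives were DESeq2 1.42.0, RLE and upper-quartile scaling, no filter, a 1 CPM filter, robust dispersion, a minimum fold of 1.2, a replicate block, other sets of libraries, and leaving out each replicate. Mouse libraries were not analysed here. Some genes that the naming rule picks are not reported here.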

Additional observations from a re-analysis of the deposited data

Results flagged for a closer look

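The change with both drugs (H151_iR4 against Vehicle) and that of KO_2 cells given H-151 (against Ctrl Vehicle) differed in 5946 of 14585 genes by edgeR's quasi-likelihood test of the difference, 40.8% of those tested. Of 10 genes with the largest differences, 8 held at least 10 counts, summed over the 3 libraries, in each of the 4 groups. The differences, on the log2 scale and positive where the change was higher with both drugs, were 3.54 for ALDH3A1, 3.15 for MMP10, 3.12 for AKR1B10, 2.88 for CLCA2 and 2.67 for MAOB. AKR1B10 went from 31.5, 32.5 and 38.2 CPM in Ctrl to 4.15, 3.99 and 3.63 CPM in KO_2_H151, while its change with both drugs was 0.00. On the negative side they were -6.38 for SLC12A3, -5.45 for KRT81 and -4.56 for MFAP5, genes that were higher in KO_2_H151 than in Ctrl. SLC12A3 held only 5, 6 and 0 counts in Ctrl, so the size of its difference rests on few reads. The other 2 were CCL20, with 2, 2 and 5 counts in Vehicle, 0, 1 and 0 in H151_iR4, 1, 1 and 1 in Ctrl and 268, 241 and 263 in KO_2_H151, and PXDN, with 18, 15 and 23, then 7, 22 and 13, then 1, 0 and 1, and then 260, 242 and 261 counts.

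Among genes described in the report, the difference was -2.39 for OASL, -0.97 for IFIT1, -2.61 for FN1, 2.01 for AKR1C2, 1.12 for TP63, 1.17 for SCD and 1.97 for REXO4. REXO4 stood at 73.9, 77.1 and 70.7 CPM in Ctrl and at 17.3, 16.9 and 19.7 CPM in KO_2_H151, as its knockout label says. Drug, knockout and experiment cannot be told apart in these differences. Groups of 3 libraries were not searched for single outlying libraries.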

How the results depend on the processing

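Sign changes of gene values not called in the main fit were not counted. No value called in the main fit changed sign in 3209 recomputations of 200 values. The call was lost in 126 of them and gained in 9, the minimum fold aside, and lost in 81 values with it. Genes higher with both drugs numbered 869 with DESeq2, 1054 with 24 libraries and up to 1311 with the 6 libraries alone, and genes lower 1145, 1093 and 1421. Requiring a change above 1.2-fold left 135 higher and 195 lower, by construction, and moved the higher share of calls from 47.6% to 40.9% (43.1% with DESeq2). Leaving out 1 replicate at a time gave 864 to 1108 higher and 927 to 1284 lower, 9508 to 9739 genes called against iR4, 9606 to 9784 for iR4 against Vehicle, and 5292 to 5879 for the difference from KO_2_H151, which was 5940 without the 7 R4KO_1 genes (chosen after seeing the data). Limiting the R4KO_1 sets to 2-fold genes gave 87 and 75 for the higher set and 6 and 50 for the lower set, with fewer genes by construction.

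With the replicate number as a block, 1204 genes were higher and 1327 lower, 9940 were called against iR4, 10058 for iR4 against Vehicle and 5870 for the difference. The R4KO_1 sets then held 569 and 350, and 294 and 657. Of the 200 gene values, the replicate block gave a call to SLC19A1 (adjusted p = 0.0382) and took that of IL10RB (adjusted p = 0.0547). Over the settings other than the minimum fold, called members ranged from 14 to 18 of the interferon-stimulated genes lower, 21 to 23 of NRF2 targets higher, 18 to 23 of ATF4 targets higher, 14 to 16 of chaperones higher, 12 to 16 of YAP targets lower and 20 to 23 of matrix genes lower. Genes under about 1 CPM, such as INHBA and BEST1, rest on few reads.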

Other observations

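The lists below were not described in the report, and their shares stand beside the 8.71% of all genes higher and 9.58% lower. Of 29 glycolysis and hypoxia genes, 5 were higher (17.2%) and 3 lower (10.3%): the neuronal enolase ENO2 rose by 0.46 (edgeR adjusted p = 4.69e-06) and the hypoxia-responsive NDRG1 by 0.35 (adjusted p = 6.51e-05), while PFKFB4 changed by -0.48 (adjusted p = 1.56e-05). Of 27 apoptosis genes, 3 were higher (11.1%) and 2 lower (7.41%): the death receptors TNFRSF10A (0.32, adjusted p = 3.88e-04) and FAS (0.31, adjusted p = 0.00239) rose, as did CASP8, and the anti-apoptotic BCL2L1 changed by -0.31 (adjusted p = 4.25e-05). Proteasome subunits had 5 of 31 higher (16.1%; 3 without Vehicle replicate 1) and 0 lower, with PSMD14 at 0.21 (adjusted p = 6.57e-05) and PSMC2 at 0.17 (adjusted p = 0.00109).

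Of 14 histone genes tested, 3 were lower (21.4%) and 0 higher, with a median of -0.31. Of 9 immune checkpoint genes tested, 3 were higher (33.3%): CD276 (0.19, edgeR adjusted p = 2.76e-04), PVR (0.14) and the don't-eat-me signal CD47 (0.13). VSIR was the 1 lower (11.1%), with a change of -0.36 (adjusted p = 1.48e-04). The 3 higher checkpoint genes became 1 without H151_iR4 replicate 1 or Vehicle replicate 2 and 2 without H151_iR4 replicate 2 or Vehicle replicate 1, and the PVR call was lost in 4 settings. One-carbon genes had 4 of 21 lower (19%) and 1 higher (4.76%), the latter being the ATF4 target MTHFD2 (0.14, edgeR adjusted p = 0.00566). The 4 lower one-carbon genes became 0 without H151_iR4 replicate 2 or Vehicle replicate 3 and 2 without H151_iR4 replicate 3 or Vehicle replicate 1.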
